A study of Mus musculus with 8 samples.

Results

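The 33 genes described here encode the apolipoproteins of the liver and the proteins that assemble, remodel, hydrolyse and take up plasma lipoproteins. They were chosen by name, and all 33 were found among the 22052 genes of the table and passed the filter on low values. The livers came from adult male C57BL/6 mice, 8 weeks old, and all of them had received corn oil into the peritoneum. In 4 mice both Zfp36l1 and Zfp36l2 carried floxed alleles together with Alb-Cre (Zfp36l1fl/fl/Zfp36l2fl/fl/Alb-Cre), which is driven by the albumin promoter and acts in hepatocytes (dKO). The other 4 mice had the floxed alleles of both genes and no Cre (Zfp36l1fl/fl/Zfp36l2fl/fl, controls). ZFP36L1 and ZFP36L2 recognise AU-rich stretches of mRNA 3' untranslated regions (3' UTRs) and promote decay of the transcript. Each library is 1 mouse, and levels are normalised read counts, which the authors scaled with a single factor for each library.

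Lipoproteins carry triglyceride and cholesterol through the blood. Hepatocytes build very low density lipoprotein (VLDL) around apolipoprotein B, which microsomal triglyceride transfer protein loads with lipid, and also secrete the smaller apolipoproteins of high density lipoprotein (HDL). Lipoprotein lipase on capillary walls hydrolyses the triglyceride with apolipoprotein C-II as its cofactor, while apolipoprotein C-III and the angiopoietin-like proteins restrain it. Remnants return to hepatocytes through apolipoprotein E and receptors such as LRP1, and HDL is matured by LCAT and PLTP and delivers cholesterol through SCARB1.

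The liver labels were checked first. Zfp36l1 read 214, 213, 209 and 267 in the 4 dKO livers, against 1321, 1336, 1182 and 1642 in the 4 controls (log2 change -2.60, SE 0.11, limma adjusted p = 1.7e-08). Zfp36l2 read 696, 794, 771 and 923 in the 4 dKO livers, against 1722, 1795, 997 and 1819.6 in the 4 controls (log2 change -0.96, SE 0.17, limma adjusted p = 0.000689). Both were lower in all 4 dKO livers, and for each an exact permutation test (2-sided, 70 ways to assign the 8 livers) gave p = 0.0286, its smallest possible value. The 9 hepatocyte markers summed to between 1483711 and 1640578 normalised read counts in dKO livers and between 1319188 and 1406913 in controls, with albumin (Alb) and hemopexin (Hpx) the highest. Libraries held 15253827 to 19299556 reads. On the first principal component, which took 74.5% of the variance, dKO livers scored 57.5 to 68.9, control 4 scored -43.3 and controls 1 to 3 scored -76.5 to -67.7.

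In dKO livers 10 of the 33 genes rose, 11 fell and 12 passed the test in neither direction (limma on log2(value + 0.5), Benjamini-Hochberg adjusted p under 0.05 over all 20055 genes tested). The genes that rose were Apoa4, Apod, Lpl, Abcg1, Pltp, Apoc2, Apobec1, Lsr, Abca1 and Tm6sf2. Those that fell were Vldlr, Angptl4, Lipc, Sar1b, Apoa2, Apoc4, Sort1, Apoh, Apom, Apoc1 and Apon. Among all genes tested 21.2% rose and 17.0% fell, and among the 9765 whose mean reached 100, 24.0% rose and 28.2% fell. The 33 genes stood at 30.3% and 33.3%, and the 31 of them with such a mean at 29.0% and 32.3%, close to the shares of well expressed genes. Their median log2 change was -0.12, against 0.03 over all genes tested. By 2-fold or more 5 of the 33 rose and 3 of the 33 fell, against 12.8% and 3.97% of all genes. These 2-fold shares were not computed for well expressed genes alone. The values of the dKO livers and the controls did not overlap for 22 of the 33 (66.7%), against 36.4% of all genes. That share was not computed for well expressed genes alone, which most of the 33 are, so the 2 percentages do not compare genes of like level. With quantile normalization 12 rose and 8 fell, while that scaling moved the median of all genes by -0.11. In bulk liver, fewer cells of a type and less RNA per cell cannot be told apart.

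**Figure D1:**
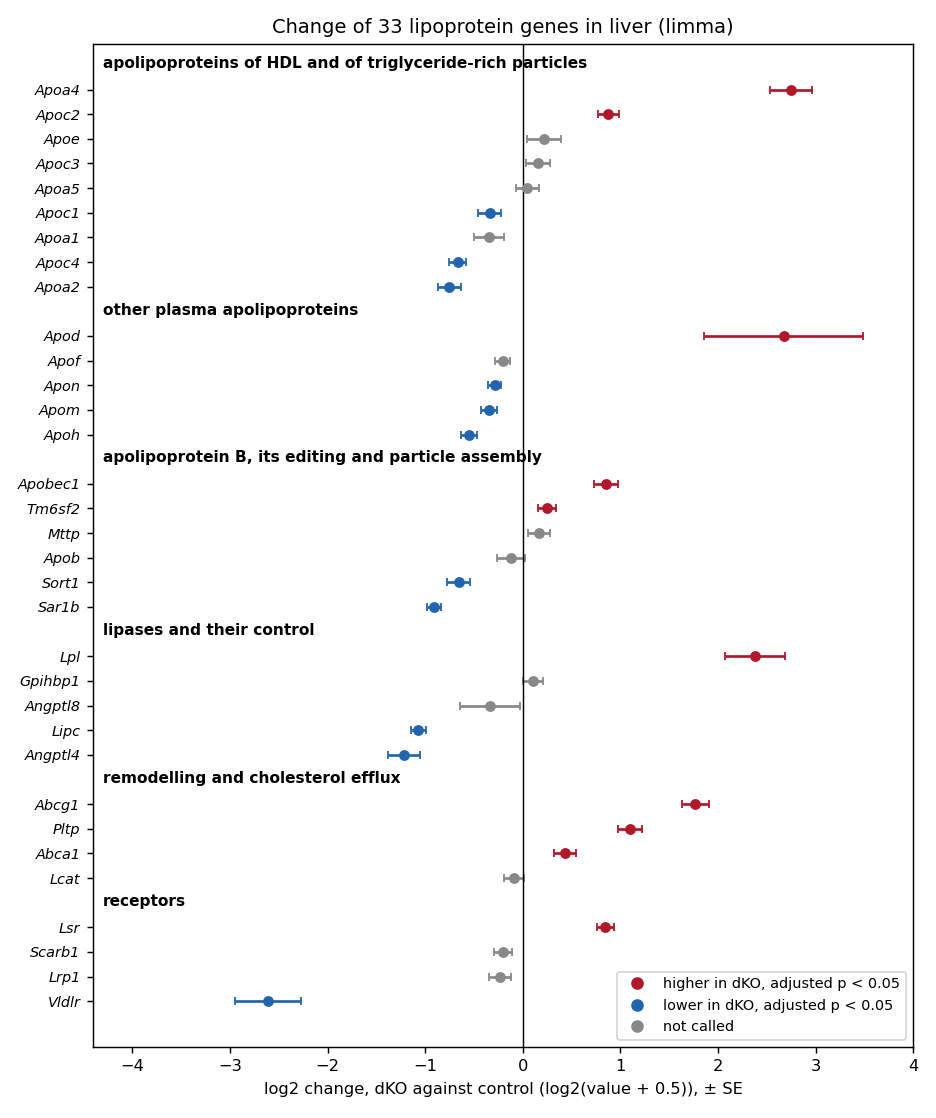
Log2 change of each of the 33 genes, dKO against control, with its standard error (4 livers per group), grouped by role. Red points rose and blue points fell at an adjusted p under 0.05, and grey points did not pass. Apoa4 (2.75) and Vldlr (-2.61) mark the ends of the range, and each of the 6 role groups other than remodelling and cholesterol efflux holds both a rise and a fall.

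The deleted proteins bind AU-rich mRNAs, so the 3' UTRs were searched for TATTTAT, the core of that element (sense strand only). It stood in the annotated 3' UTR of 4 of the 33 genes (12.1%), against 30.1% of the 15424 tested genes with a 3' UTR. The longest 3' UTR of the 33 genes had a median of 290.0 bases, against 1096 bases over all those genes, and a longer sequence has more room for a match. The 6 matches are shown because these 4 genes alone among the 33 carry the motif, and they did not move in 1 direction. Lpl rose, Vldlr and Sort1 fell, and Mttp passed in neither direction. Each is printed 5′ to 3′ on the sense strand with the motif in capitals (GENCODE M21 transcripts, GRCm38), in the order chr8:68906246-68906252 and chr8:68906682-68906688 (plus strand), chr19:27251442-27251448 (plus), chr3:108359711-108359717 (plus), chr3:138090464-138090470 and chr3:138090034-138090040 (minus).
Lpl: taatgaagaatTATTTATgaacgagatctc
Lpl: agctttcaattTATTTATtagctgtaaata
Vldlr: cctaaaaaggaTATTTATaattaaaacagc
Sort1: ttaagccatttTATTTATtttgttttttac
Mttp: ttaagaattaaTATTTATgttttctgatag
Mttp: gcatttaaacaTATTTATtagtaaagcaga
The second Lpl match and the Sort1 match lie within the longer form TTATTTATT, which 8.25% of all tested genes with a 3' UTR hold. Of the 10 genes that rose, 1 held TATTTAT, as did 2 of the 11 that fell and 1 of the 12 in neither group. A match describes the sequence and does not show that a protein binds there.

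Apolipoprotein mRNAs were among the most abundant of the liver in both groups. The 15 apolipoprotein genes together took 4.57% ± 0.117 of all normalised read counts in dKO livers and 4.45% ± 0.230 in controls (SD, n = 4 each), a difference smaller than the SD between controls. Apoe alone took 2.35% to 2.55% in dKO livers and 1.86% to 2.04% in controls. Of the 15 genes 3 rose, 6 fell and 6 did neither. The near-equal sum therefore joins a higher Apoe share with more falls than rises, and does not show that its members were unchanged. Levels between genes are compared per kilobase of the principal transcript. Apoe was the highest, at 290913 in dKO livers and 250049 in controls, followed in controls by Apoa2, with 106140.0 in dKO livers and 178947 in controls. Apoa1 stood at 64792 in dKO livers and 82715 in controls, and Apoc1 at 63374 in dKO livers and 80704 in controls. Apoc3 came next, at 46110.3 in dKO livers and 41594 in controls. Apob, whose transcript of 13934 bases collects many reads, ranked 10 in controls per kilobase, at 7351 in dKO livers and 7968 in controls. Apoa4, at 3604 in dKO livers and 520.2 in controls, stood 23rd of the 33 in controls. Vldlr and Apod were at the bottom, with 2.72 in dKO livers and 16.2 in controls for Vldlr.

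**Figure D2:**
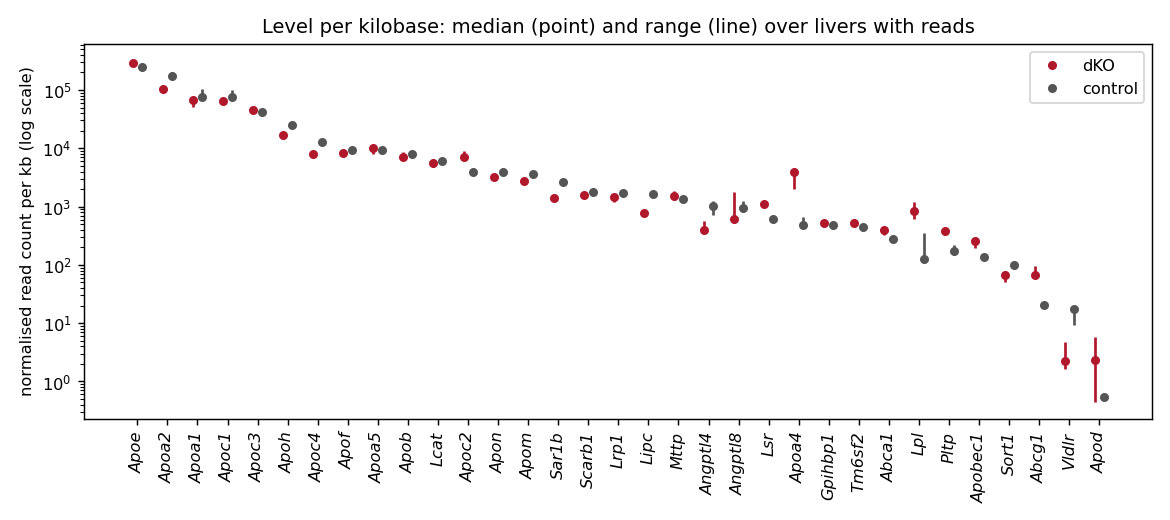
Normalised read count per kilobase of the principal transcript on a log axis for the 33 genes, ordered by the control mean, with dKO in red left of control in grey. Points are medians and lines the range over the livers that had reads (4 per group, fewer for Apod); Apoe leads in both groups, and the ranges of Apoa4, Abcg1, Vldlr, Lipc and Lpl are among those that do not meet.

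Of the 9 apolipoproteins of HDL and of triglyceride-rich particles, 2 rose, 3 fell and 4 did neither. Apoa4 (chr9:46240696-46243459, mm10) changed most. It encodes apolipoprotein A-IV, a lipid-binding protein made in intestine and, in mice, also in liver. Apoa4 read 3694, 7209, 8424 and 6842 in dKO 1 to 4, against 1211, 819, 779 and 968 in controls 1 to 4. Every dKO liver lay above every control, with dKO 1 the lowest of its group. The mean was 6542 ± 2016 in dKO livers and 944 ± 195 in controls, 6.93-fold higher (log2 change 2.75, SE 0.22, limma adjusted p = 1.2e-06), and the log2 change lay between 2.61 and 3.00 in all 17 other settings. Of 6 markers of intestinal epithelium, Cdx2 and Alpi were absent from the deposited values, 4 had values and 3 of those were tested. Fabp2 and Lgals4 fell, Vil1 rose at levels of at most 10.2, and Krt20 was below 3 in every liver. The list's sum of 381 to 542 in dKO livers lay below the 793 to 1280 in controls. Nearly all of it was Fabp2 (mean 282 in dKO livers and 598 in controls) and Lgals4 (169 in dKO livers and 393 in controls). Whether intestinal tissue added reads of Apoa4 was not tested. Of the hepatocyte markers, 4 of 9 rose and 2 fell.

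Apoa4 lies in a cluster of 4 apolipoprotein genes that spans 43.3 kb of chromosome 9 (mm10), in the order Apoa1, Apoc3, Apoa4 and Apoa5, and the other three did not pass the test. Apoa1 (chr9:46228580-46230466) encodes the main protein of HDL and read 76676, 53714, 72044 and 65803 in dKO 1 to 4, against 82224, 77332, 107346 and 75539.9 in controls 1 to 4 (log2 change -0.35, SE 0.15, limma adjusted p = 0.0905). Its groups overlapped, and its adjusted p was 0.0437 with robust variances and 0.0295 with DESeq2 on the recovered reads. Apoc3, the inhibitor of lipoprotein lipase, stood at 24254 ± 2931 in dKO livers and 21878 ± 3240.2 in controls (log2 change 0.15, SE 0.12, limma adjusted p = 0.361). Its adjusted p was 0.0167 with quantile normalization (log2 change 0.43). Apoa5, which promotes triglyceride hydrolysis, stood at 24372 ± 3266 in dKO livers and 23490.0 ± 2284 in controls (log2 change 0.05, SE 0.12, limma adjusted p = 0.784). Per liver the ratio of Apoa4 to Apoa1 reads was 0.0482, 0.134, 0.117 and 0.104 in dKO 1 to 4, against 0.0147, 0.0106, 0.00726 and 0.0128 in controls 1 to 4. The annotation places antisense genes over exons of Apoa4 and Apoa5, with the strand setting of the counting not given in the sources used here.

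In the other cluster, which spans 27.6 kb of chromosome 7 in the order Apoc2, Apoc4, Apoc1 and Apoe, the adjacent genes Apoc2 and Apoc4 moved in opposite directions. Apoc2, the cofactor of lipoprotein lipase, read 4849, 6494, 5008 and 5243 in dKO 1 to 4, against 3042, 3369, 2574 and 2747 in controls 1 to 4. All dKO livers were higher (log2 change 0.88, SE 0.11, limma adjusted p = 4.2e-05). Apoc4, a minor apolipoprotein of VLDL whose annotated end lies 141 bases from Apoc2, read 4701, 4389.7, 3672 and 4255 in dKO 1 to 4, against 6294, 6435, 7130.2 and 7107 in controls 1 to 4. All dKO livers were lower (log2 change -0.67, SE 0.09, limma adjusted p = 6.8e-05). The ratio of Apoc2 to Apoc4 was 1.28 ± 0.192 in dKO livers and 0.439 ± 0.0774 in controls. Both calls held in all 17 other settings. The annotation holds a further protein-coding gene, Gm44805, over exons of both on the same strand, so how reads were divided between these genes is uncertain.

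Apoc1, a small apolipoprotein that inhibits several steps of lipoprotein uptake, read 35283, 33921, 30991 and 34665 in dKO 1 to 4, against 40659, 38224, 52286 and 40569 in controls 1 to 4. The dKO livers were all lower (log2 change -0.34, SE 0.11, limma adjusted p = 0.033). The call was lost without any 1 of dKO 1 to 4 (adjusted p 0.0517, 0.068, 0.077 and 0.0577), without control 3 (0.088) or control 4 (0.0505), with the replicate block (0.0805) and with quantile normalization (0.469). Apoe, the ligand for remnant uptake, which macrophages also make, read 442482, 404625, 388903 and 402412 in dKO 1 to 4, against 332047, 371423, 360726 and 344080.0 in controls 1 to 4. All 4 dKO livers lay above all controls, by 1.16-fold on the mean (log2 change 0.22, SE 0.18, limma adjusted p = 0.37). It passed with edgeR (adjusted p = 0.0454) and DESeq2 (0.00673) on the recovered reads, while quantile normalization, which gives the gene of each rank the same value, set its change to 0. Apoe took 2.43% ± 0.0908 of all normalised read counts in dKO livers and 1.98% ± 0.0841 in controls.

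**Figure D3:**
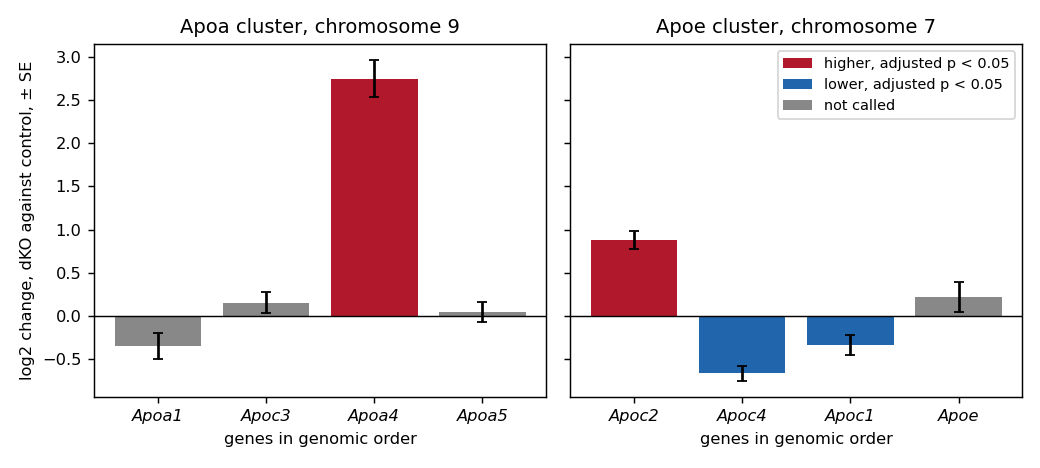
Log2 change, dKO against control, with standard error for the 4 genes of each apolipoprotein cluster in genomic order. Red bars rose, blue bars fell and grey bars did not pass; Apoa4 (2.75) stands between Apoc3 (0.15) and Apoa5 (0.05), and Apoc2 (0.88) beside Apoc4 (-0.67).

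Promoter windows are printed for a pair from each cluster whose calls differed, with CAAAG or its reverse complement CTTTG, the core of the site of the hepatocyte factor HNF4A, in capitals, searched on both strands. The windows run from 250 bases before to 50 bases after the annotated start (RefSeq, GRCm38.p6), 5′ to 3′ on the gene's strand: Apoa4 at chr9:46240594-46240893 (plus), Apoa1 at chr9:46228380-46228679 (plus), Apoc2 at chr7:19677892-19678191 (minus) and Apoc4 at chr7:19681411-19681710 (minus).
Apoa4: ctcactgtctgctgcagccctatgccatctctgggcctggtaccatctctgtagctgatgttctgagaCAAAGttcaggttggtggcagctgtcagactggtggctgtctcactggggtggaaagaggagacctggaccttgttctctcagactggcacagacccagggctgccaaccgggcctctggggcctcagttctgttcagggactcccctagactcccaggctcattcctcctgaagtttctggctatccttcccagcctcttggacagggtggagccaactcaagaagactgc
Apoa1: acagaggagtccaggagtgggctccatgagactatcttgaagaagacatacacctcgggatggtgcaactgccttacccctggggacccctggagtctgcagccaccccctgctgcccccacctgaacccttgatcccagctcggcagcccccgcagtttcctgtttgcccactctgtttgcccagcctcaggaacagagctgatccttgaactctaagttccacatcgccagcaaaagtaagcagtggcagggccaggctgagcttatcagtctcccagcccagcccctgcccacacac
Apoc2: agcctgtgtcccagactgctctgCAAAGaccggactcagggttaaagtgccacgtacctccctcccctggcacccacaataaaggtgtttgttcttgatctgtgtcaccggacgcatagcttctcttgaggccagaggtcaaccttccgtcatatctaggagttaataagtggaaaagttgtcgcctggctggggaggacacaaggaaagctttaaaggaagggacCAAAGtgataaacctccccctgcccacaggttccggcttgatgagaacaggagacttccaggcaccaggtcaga
Apoc4: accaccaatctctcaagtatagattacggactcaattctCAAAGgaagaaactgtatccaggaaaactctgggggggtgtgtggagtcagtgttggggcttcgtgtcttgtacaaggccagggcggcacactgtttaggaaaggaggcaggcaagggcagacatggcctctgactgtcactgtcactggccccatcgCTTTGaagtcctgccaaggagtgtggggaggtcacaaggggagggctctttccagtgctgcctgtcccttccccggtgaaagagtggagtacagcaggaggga
Apoa4 held 1 such core, Apoa1 held 0, and Apoc2 and Apoc4 held 2 each. The core stood in 53.9% of all 32851 promoter windows and in 21 of the 29 windows (72.4%) found for 23 of the 33 genes. The TATA box letters TATAAA on the gene's strand stood in none of these 4 windows, in 7 of the 29 (24.1%) and in 8.32% of all windows. A missing match says only that these letters are absent from the window. In GENCODE M21 the Apoa4 gene begins at 46240696, before the RefSeq start used for its window. Less of that window therefore lies before the gene than for the other genes printed, and the 4 windows are not like regions.

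Apoa2, the second protein of HDL by amount, lies alone on chromosome 1 and fell. It read 59258, 56612, 52428 and 51624 in dKO 1 to 4, against 87401, 87495, 105775 and 90108 in controls 1 to 4. Control 3 was the highest, and every dKO liver lay below every control, with a mean 59.3% that of controls (log2 change -0.75, SE 0.12, limma adjusted p = 0.000258). The ratio of Apoa2 to Apoa1 was 0.835 ± 0.148 in dKO livers and 1.09 ± 0.0893 in controls.

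Of the 5 other plasma apolipoproteins, 3 fell, 1 rose and 1 did neither. Apoh, beta-2-glycoprotein I, which binds anionic phospholipids, read 21542, 20147, 19532 and 20821 in dKO 1 to 4, against 30308, 28721, 30944 and 29831 in controls 1 to 4 (log2 change -0.55, SE 0.08, limma adjusted p = 0.000205). The 2 ranges lay well apart and were narrow in both groups. Apom, which carries sphingosine-1-phosphate on HDL, ranged from 2724 to 3077 in dKO livers and 3288 to 4112 in controls (log2 change -0.34, adjusted p = 0.00538). Apon, a rodent apolipoprotein of the Apof region, ranged from 5595 to 6097 in dKO livers and 6769 to 7545 in controls (log2 change -0.29, adjusted p = 0.00561). With quantile normalization the calls of Apom (adjusted p = 0.078) and Apon (0.651) were lost. Apof, which inhibits lipid transfer in human plasma, ranged from 10179 to 10468 in dKO livers and 11126 to 13251 in controls, with no overlap, but missed the threshold (log2 change -0.20, adjusted p = 0.0531). It passed without control 2 (0.0455), with edgeR (0.044) and DESeq2 (0.0136), with robust variances (0.048) and with a filter at a mean of 10 (0.0357). An exon of Apoh overlaps Prkca on the opposite strand, which had at most 349 normalised read counts.

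Apod encodes a lipocalin that carries small lipids, is made mainly outside the liver and was close to absent. It had 8.04, 0.925, 1.70 and 12.1 in dKO 1 to 4, against 0, 0, 0 and 1.14 in controls 1 to 4. These are 24 reads in dKO livers and 1 read in controls, or 20.9 times as many per unit of depth (95% interval 3.42 to 861, counting error only). The groups overlapped, and only dKO 1 and dKO 4 exceeded the floor of 3 reads. Its log2 change of 2.67 (SE 0.81, limma adjusted p = 0.0202) depends on the pseudocount and no longer passed without dKO 1 (0.0638), dKO 4 (0.0717), control 1 (0.0515) or control 2 (0.051).

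Among the 6 genes of apolipoprotein B, its editing and particle assembly, 2 rose, 2 fell and 2 did neither. Apob itself, the structural protein of VLDL, read 92173, 90067, 122145 and 105303 in dKO 1 to 4, against 115299, 127181, 104593 and 97025 in controls 1 to 4 (log2 change -0.12, SE 0.15, limma adjusted p = 0.561). The groups overlapped, with the highest dKO value in dKO 3 and the highest control value in control 2. Mttp, which lipidates apolipoprotein B, stood at 6102 ± 919 in dKO livers and 5408 ± 617 in controls (log2 change 0.17, SE 0.11, limma adjusted p = 0.263). It was called only with quantile normalization (adjusted p = 0.0114, log2 change 0.40).

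Sar1b, the small GTPase of COPII vesicles that carry lipoproteins out of the endoplasmic reticulum, had the smallest adjusted p of these 6 genes. It read 1632, 1752, 1684 and 1619 in dKO 1 to 4, against 3238, 3391, 2998 and 2925 in controls 1 to 4. The dKO livers lay close together at 53.3% of the mean in controls, all below the controls (log2 change -0.91, SE 0.07, limma adjusted p = 1.2e-06). Sort1, a sorting receptor that binds apolipoprotein B, fell to 443 ± 77.4 in dKO livers, against 692 ± 44.6 in controls (log2 change -0.66, SE 0.12, limma adjusted p = 0.000808). Apobec1, the cytidine deaminase that edits Apob mRNA to the shorter apolipoprotein B48, read 433, 603, 560.4 and 615 in dKO 1 to 4, against 270.1, 339.6, 323 and 287 in controls 1 to 4. All dKO livers were higher (log2 change 0.85, SE 0.12, limma adjusted p = 0.000153). Editing itself cannot be read from counts per gene. Tm6sf2, a membrane protein needed for full lipidation of VLDL, stood at 767 ± 71.7 in dKO livers and 644 ± 58.8 in controls (log2 change 0.25, SE 0.09, limma adjusted p = 0.0478). That call was lost without any 1 of dKO 1 to 4 (adjusted p 0.12, 0.0635, 0.0655 and 0.0564), without control 1 (0.0534), 2 (0.128) or 4 (0.113), and with no filter on low values (0.0512).

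Of the 5 genes of lipases and their control, Lpl rose, Lipc and Angptl4 fell, and Gpihbp1 and Angptl8 did neither. Lpl (chr8:68880491-68907448) encodes lipoprotein lipase, which adult hepatocytes make little of. It read 4969.7, 2542, 2769 and 4045 in dKO 1 to 4, against 485, 567, 491 and 1424 in controls 1 to 4. Every dKO liver lay above every control, and control 4 was well above controls 1 to 3. The mean was 3582 ± 1137 in dKO livers and 742 ± 456 in controls, 4.83-fold higher (log2 change 2.38, SE 0.31, limma adjusted p = 6.8e-05), and without control 4 the log2 change was 2.75 (adjusted p = 8.0e-06). Lipc (chr9:70798128-70952226) encodes hepatic lipase, the lipase that hepatocytes secrete to act on HDL and remnants. It read 1378, 1585, 1552 and 1390.1 in dKO 1 to 4, against 3366, 3178, 3023 and 2839.7 in controls 1 to 4. The dKO livers fell to 47.6% of the control mean with no overlap (log2 change -1.07, SE 0.08, limma adjusted p = 7.4e-07). The ratio of Lpl to Lipc was 2.48 ± 0.950 in dKO livers and 0.247 ± 0.170 in controls, so that Lpl had more reads than Lipc in every dKO liver and fewer in every control.

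Angptl4, an inhibitor of lipoprotein lipase, fell. It read 1334, 1276, 1202 and 1873 in dKO 1 to 4, against 4047, 3749.9, 2343 and 3147 in controls 1 to 4. The groups did not overlap, although dKO 4 and control 3 approached each other (log2 change -1.22, SE 0.17, limma adjusted p = 0.000112). The ratio of Lpl to Angptl4 was 2.54 ± 0.796 in dKO livers and 0.233 ± 0.151 in controls. Angptl8, a fed-state hormone that takes part in restraining the lipase, read 484, 1539, 594 and 445 in dKO 1 to 4, against 1059.7, 817, 697 and 826 in controls 1 to 4. In dKO 2 it was far above the other dKO livers, and the groups overlapped (log2 change -0.33, SE 0.31, limma adjusted p = 0.428). Without dKO 2 the log2 change was -0.74 and the adjusted p was 0.00261. Gpihbp1, which anchors lipoprotein lipase on capillary endothelium, stood at 429 ± 28.4 in dKO livers and 400.3 ± 43.6 in controls (log2 change 0.10, SE 0.10, limma adjusted p = 0.447). Of 10 endothelial markers 5 rose and 2 fell, among them Ehd3 (log2 change -0.68), while Stab2 did not pass (0.20).

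**Figure D4:**
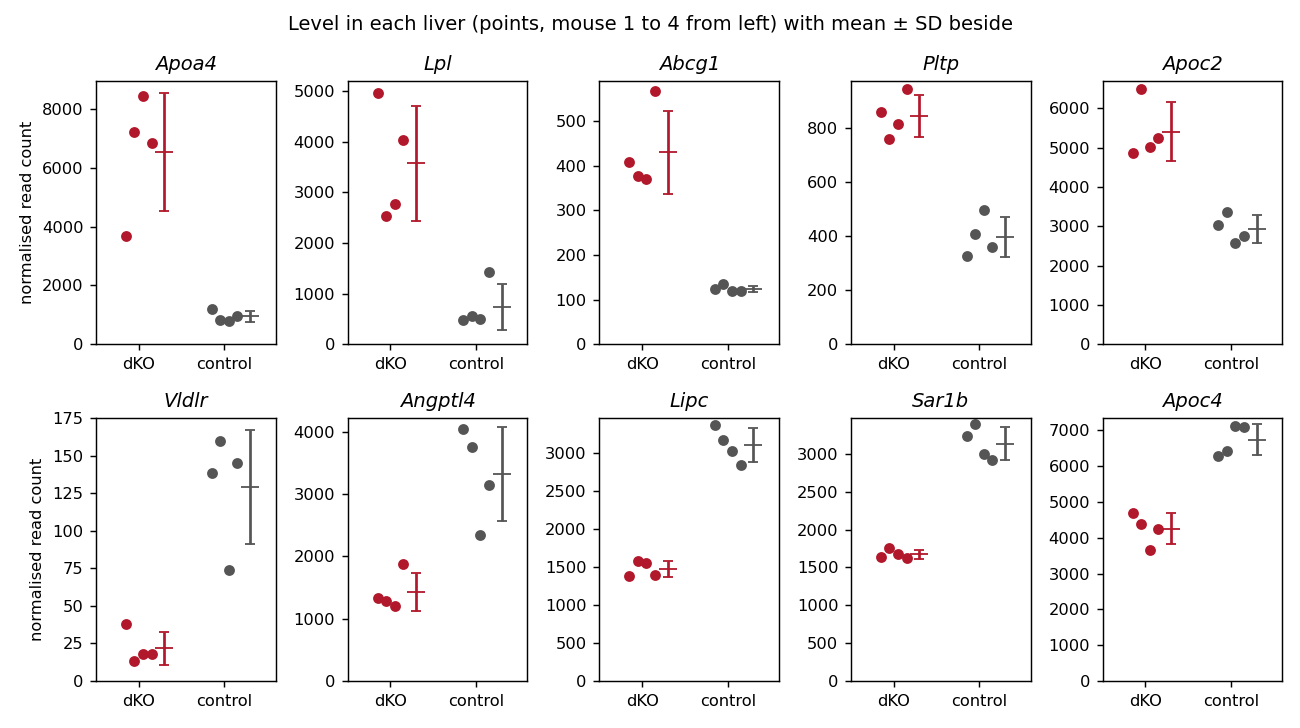
Normalised read count of 10 genes in each liver, with dKO in red left of control in grey; points are mice 1 to 4 and the bar beside them is the mean with SD (n = 4). In all 10 panels the dKO livers and the controls do not overlap, with Lpl of control 4 (1424) and Vldlr of control 3 (73.6) the controls nearest to the dKO livers in their panels.

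Among the 4 genes of remodelling and cholesterol efflux, 3 rose and Lcat did neither. Abcg1 moves cholesterol out of cells to HDL and is high in macrophages. It read 409, 377, 369.6 and 568 in dKO 1 to 4, against 123, 134, 119.9 and 120.1 in controls 1 to 4. The controls were nearly equal and all dKO livers lay above them, 3.46-fold higher on the mean (log2 change 1.77, SE 0.14, limma adjusted p = 1.1e-06). Pltp transfers phospholipids to HDL. It read 859, 759, 814 and 943 in dKO 1 to 4, against 327, 408, 498 and 360.3 in controls 1 to 4. The groups did not overlap (log2 change 1.10, SE 0.12, limma adjusted p = 2.2e-05). Its exons overlap Ctsa on the opposite strand, which stood at 2796 in dKO livers and 2589 in controls. Abca1, which loads apolipoprotein A-I with cholesterol and phospholipid, stood at 3926 ± 526 in dKO livers and 2899.5 ± 372 in controls (log2 change 0.44, SE 0.11, limma adjusted p = 0.00798). Lcat, which esterifies the cholesterol of HDL, stood at 7615 ± 1025 in dKO livers and 8065 ± 761 in controls (log2 change -0.09, SE 0.10, limma adjusted p = 0.548).

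Macrophages express Lpl, Abcg1, Pltp, Abca1 and Apoe, and markers of these cells moved with the groups. Of 10 monocyte and macrophage markers 9 rose and 0 fell (limma; also 0 at an unadjusted p under 0.05, with edgeR and with DESeq2). They summed to 9144, 11776, 9891 and 13667 in dKO 1 to 4, against 2648, 2494, 2083 and 6845 in controls 1 to 4. The 2 highest were Lyz2 (4417 ± 938 in dKO livers and 1920.4 ± 1695 in controls; 1075 ± 151 in controls 1 to 3 alone) and Cybb (2507 ± 349 in dKO livers and 404 ± 137 in controls). Of 8 Kupffer cell markers 5 rose and 0 fell by limma (1 at an unadjusted p under 0.05, 0 with edgeR and DESeq2), with Cd5l up (log2 change 0.89) and Clec4f not called (-0.07). Their sums were 11480.5 to 17949 in dKO livers and 7188 to 8236 in controls, and no macrophage or Kupffer cell marker was at 0 in any liver. Control 4, high for Lpl, was also the control with the highest macrophage sum, and its median macrophage marker lay 1.03 on the log2 scale above the control mean. Abcg1 in control 4 (120.1) lay within the other controls (119.9 to 134). Pltp in control 4 (360.3) likewise lay within the other controls (327 to 498). Apoe in control 4 (344080) lay within them too (332047 to 371423), and Abca1 in control 4 (2524) lay below them (2638 to 3254). Of 10 stellate cell and fibroblast markers 7 rose, with Col3a1 (log2 change 2.96) and Col1a1 (3.71) the highest in level. Control 4 stood above the other controls for both, and without it their log2 changes were 3.53 and 4.36, and 10 of 10 macrophage and 8 of 10 stellate cell and fibroblast markers rose. Of 8 bile duct markers 7 rose, of which 4 overlapped between the groups. Spp1 (log2 change 3.85) and Sox9 (0.87, the smallest change of the list) were the highest in level. Control 4 had the highest control sum of the bile duct markers as well (1577, against 663 to 811 in controls 1 to 3). Most of that sum was Spp1 alone (1247 in control 4). The part of any of these cells in the results was not tested.

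**Figure D5:**
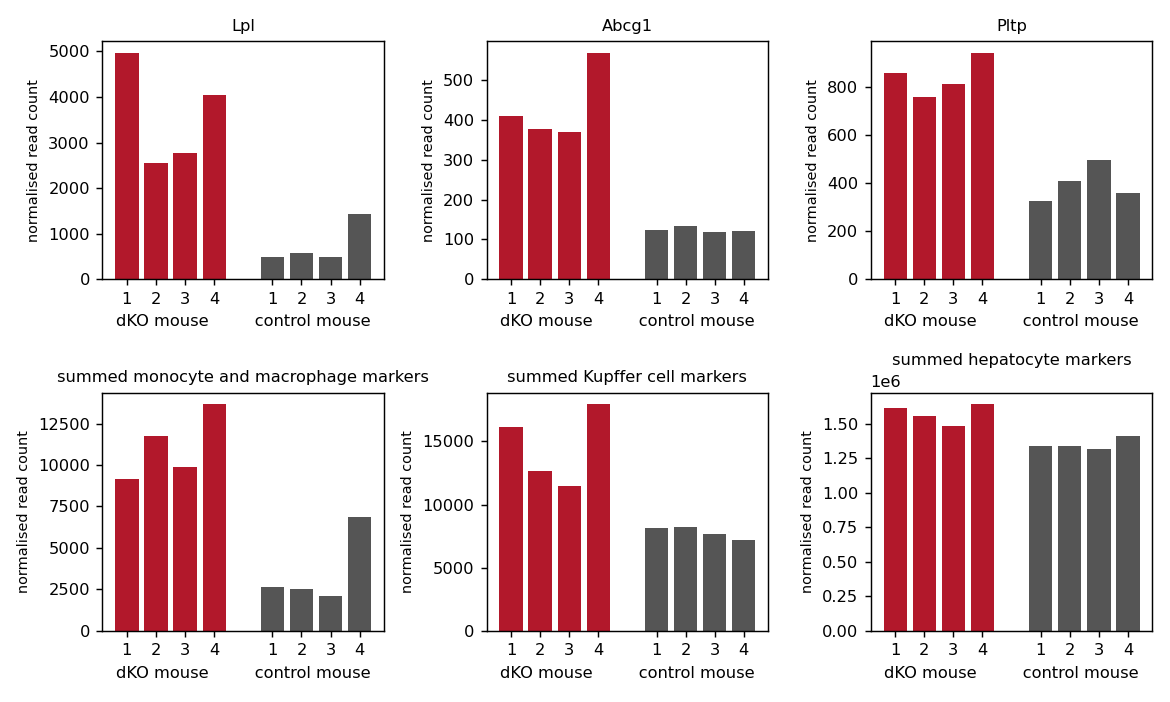
Normalised read counts in each liver for Lpl, Abcg1 and Pltp (upper row) and for the summed markers of monocytes and macrophages, of Kupffer cells and of hepatocytes (lower row), with dKO in red left of control in grey. Control 4 stands out for Lpl (1424) and for the macrophage sum (6845), and not for Abcg1, Pltp or the Kupffer cell sum.

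Of the 4 receptors, Lsr rose, Vldlr fell, and Scarb1 and Lrp1 did neither. Lsr, the lipolysis-stimulated receptor for remnants, read 2141, 2582, 2561 and 2195 in dKO 1 to 4, against 1353, 1427, 1259 and 1223 in controls 1 to 4. All dKO livers were higher (log2 change 0.85, SE 0.09, limma adjusted p = 9.0e-06). The annotation has antisense genes over Lsr exons, of which Gm4673 stood at 175 in dKO livers and 174 in controls. Vldlr (chr19:27216484-27254231), the VLDL receptor, is scarce in liver. It read 38.2, 12.9, 17.9 and 17.7 in dKO 1 to 4, against 139, 160.0, 73.6 and 145 in controls 1 to 4. Every dKO liver lay below every control, with dKO 1 the highest of its group and control 3 the lowest of the controls, and the mean was 16.8% that of controls (log2 change -2.61, SE 0.34, limma adjusted p = 6.4e-05). Scarb1, the HDL receptor, stood at 3944 ± 273 in dKO livers and 4557 ± 514 in controls (log2 change -0.20, SE 0.09, limma adjusted p = 0.0907), and its adjusted p was 0.0371 without control 4. Lrp1, the large receptor for remnants, stood at 21552 ± 2691 in dKO livers and 25202 ± 2351 in controls (log2 change -0.23, SE 0.11, limma adjusted p = 0.124).

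The spread between livers differed among the 33 genes. Between the 4 dKO livers the coefficient of variation was lowest for Apof (1.14%) and Sar1b (3.61%) and highest for Apod (93.6%), Angptl8 (67.9%) and Vldlr (51.9%). Between the controls it was lowest for Apoh (3.13%) and Apoe (4.96%), and highest for Apod (200%), Lpl (61.5%) and Vldlr (29.6%). The scarce Apod and Vldlr rest on the fewest reads of the set.

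The rest of the pathway was described from 56 further genes. Of these 10 rose and 24 fell, or 14 and 20 with quantile normalization, with a median log2 change of -0.19. The 10 and 24 are 17.9% and 42.9% of the list, beside 21.2% and 17.0% of all genes tested and 24.0% and 28.2% of the well expressed ones. Of 16 genes of assembly and secretion, 1 rose and 9 fell, with a median of -0.39. Ces1d, a lipase of the endoplasmic reticulum that mobilises triglyceride for VLDL, fell to 4857 ± 819.7 in dKO livers, against 11952 ± 791 in controls (log2 change -1.31, adjusted p = 1.7e-06). Soat2, which makes cholesteryl esters, fell to 57.2% of the control mean. Cideb, which takes part in VLDL lipidation, fell to 66.8%, and Pla2g12b, which is needed for VLDL secretion, to 72.7%. Of the cofactors of APOBEC1 in Apob editing, A1cf (log2 change -0.57, adjusted p = 0.00717, with overlap) and Rbm47 (-0.45, adjusted p = 0.00663) both fell, while Syncrip, another binding partner of that complex, did not pass (-0.12, adjusted p = 0.383); the 3 were singled out after their values were seen.

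Of 13 further genes of receptors, uptake and lipases, 5 rose and 2 fell. Cd36, a fatty acid and lipoprotein receptor, rose to 3214 ± 368 in dKO livers, against 1489 ± 438 in controls (log2 change 1.16). Lrp8, the apolipoprotein E receptor ApoER2, rose at very low levels and read 13.1, 26.8, 19.6 and 30.7 in dKO 1 to 4, against 1.03, 2.05, 1.05 and 4.57 in controls 1 to 4, from 98 reads in dKO livers and 8 reads in controls. Lrpap1, the chaperone of the LRP receptors, fell to 64.9% of the control mean (adjusted p = 7.6e-05). Of 13 further genes of HDL and plasma particles, 4 rose and 7 fell, of which Gpld1 turned to a value near 0 with quantile normalization. Pon1, the antioxidant esterase of HDL, read 3230.0, 3189.7, 2903 and 4521 in dKO 1 to 4, against 14105, 14007, 12593 and 13148 in controls 1 to 4. It fell to 25.7% of the level in controls (log2 change -1.98, SE 0.12, limma adjusted p = 1.4e-07). Clu, clusterin or apolipoprotein J, rose to 72797 ± 6103 in dKO livers, against 31201 ± 3247 in controls (log2 change 1.22, adjusted p = 4.6e-06). Pla2g7, the platelet-activating factor acetylhydrolase of lipoproteins, which macrophages secrete, read 258, 283, 272 and 336 in dKO 1 to 4, against 58.5, 66.7, 60.0 and 149.8 in controls 1 to 4 and rose (log2 change 1.89). Control 4 was the highest control for Pla2g7 too, and without it the log2 change was 2.20. Without control 4 the counts of this list were 2 higher and 6 lower, with Abcg5 and Pcyox1 no longer passing upward.

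Of 14 regulators of apolipoprotein transcription 0 rose and 6 fell (42.9%, beside the 17.0% of all genes tested and 28.2% of the well expressed ones) by limma, of which Rxra turned to the other sign, uncalled, with quantile normalization. The count of rises was also 0 at an unadjusted p under 0.05, with edgeR and with DESeq2. Nr1d1, the clock repressor REV-ERB alpha, which represses Apoc3, read 689, 496, 651 and 599.6 in dKO 1 to 4, against 2767, 2816, 2770.5 and 3290.3 in controls 1 to 4 (log2 change -2.26, SE 0.10, limma adjusted p = 1.8e-08). The groups lay far apart. Hnf4a, which activates most apolipoprotein promoters, fell to 10952 ± 503 in dKO livers, against 14613 ± 1654 in controls (log2 change -0.41, adjusted p = 0.00337). Ppara, the fatty acid sensor that induces Angptl4, fell to 66.4% of the control mean. The liver X receptors Nr1h3 (log2 change -0.12, adjusted p = 0.209) and Nr1h2 (-0.19, 0.0554), which activate Abcg1, Abca1 and Pltp, did not pass the test; they too were singled out after their values were seen.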

How the data were processed

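Liver RNA of 8 mice, 4 per group, was sequenced. The tools named in the submitters' processing notes are HISAT2 2.0.5, featureCounts 1.5.0-p3, fastp and DESeq2, with build mm10; annotation, strand setting and filters were not given in the sources used here. The deposited table bears the name FPKM, yet it holds a scaled signal, gene read counts over a single size factor for each library, since 100% of values lie within 0.001 of a whole multiple of the library's step. The planned log-scale test was kept. Dividing by the steps gave back the reads used as depth. Floors of 3 counts and intervals cover counting error only.

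Of 22052 genes, 21796 identifiers matched a symbol. Genes with a mean of 0.5 or more (20055) were tested with limma 3.58.1 (R 4.3.3, eBayes with a trend) on log2(value + 0.5), 2-sided, adjusted by Benjamini-Hochberg, with 0.05 as the threshold. Fold changes on this scale understate the change of low genes. The script was tested on simulated data. Alternatives used edgeR 4.0.16 and DESeq2 1.42.0 on the recovered reads, other pseudocounts (0.1 and 1), filters and scalings, and left out each liver in turn. Annotation was GENCODE M21 (GRCm38, the assembly mm10 names).

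The 33 genes, the other lists, tests and the rule for named genes were chosen with earlier results of these data known. That rule takes all 33 genes, Zfp36l1 and Zfp36l2, up to 4 called genes of each further list with the smallest adjusted p, and the 2 highest markers of each cell type. Further genes named are marked in the text, and some genes the rule takes are not reported here. Of 6 adipocyte markers, Plin1, Lep and Retn were absent from the deposited values. Adipoq, with 0 reads in dKO livers and 3 reads in controls, was too low to test. Of the 2 tested, Cidec rose and Car3 fell. No pair of libraries within a group agreed within sampling noise (chi-square per gene of 15.0 to 32.5).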

Additional observations from a re-analysis of the deposited data

Results flagged for a closer look

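In 5 of the 66 sets of 4 values (33 genes in dKO livers and in controls), 1 liver lay so far from the others that its gap to the nearest, divided by the whole range of the 4, exceeded Dixon's 95% critical value. Chance flags about 1 in 20 such sets. In dKO livers, Tm6sf2 was high in dKO 1, with a gap of 0.857 of the range (874 against 719.7 to 742), and Angptl8 in dKO 2, with 0.864 (1539 against 445 to 594). In controls, Lpl was high in control 4, with 0.912 (1424 against 485 to 567), and Apoa2 in control 3, with 0.853 (105775 against 87401 to 90108). Apod was seen in control 4 alone, from 1 read, with a gap of 1.000 of the range.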

How the results depend on the processing

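The counts of the 33 genes called higher (10) and lower (11) stayed within 1.5 times under all 17 other settings, at 8 to 12 and 8 to 13, and at 8 to 10 and 10 to 12 when 1 liver was left out; without control 4 they were 9 and 11. For the 56 further genes they were 8 to 14 and 20 to 26. Over all genes 3638 to 4265 rose and 2925 to 4312 fell, with the fewest rises (3638) and the most falls (4312) under quantile normalization; edgeR on the recovered reads called 3893 and 3382. Of the 21 calls, 16 held in every setting, and Apoc1, Apod, Apom, Apon and Tm6sf2 were lost in at least 1, as given above. Of the 12 genes not called, 5 (Apoa5, Apob, Gpihbp1, Lcat and Lrp1) passed in none. With quantile normalization, calls among the further genes turned for Gpld1 (log2 change 0.00371) and Rxra (0.0464), both no longer called; the cause was not tested. Apod had no value with edgeR or with the filter at a mean of 10, and its log2 change was 4.29 with a pseudocount of 0.1 and 2.04 with 1. With the mouse number as a replicate block, 10 of the 33 genes rose and 10 fell, and 10 and 20 of the 56. Correlations of deviations ran from -0.0693 to 0.0769 for same-numbered mice and from -0.123 to 0.0578 for the other pairs. The numbers were taken only to name the mice, although so few mice cannot exclude a pairing. Depth limits Apod and Vldlr most.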

Other observations

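Abcg5 and Abcg8 encode both subunits of the sterol exporter of the bile canaliculus and were called in opposite directions, a pair singled out after its values were seen. Abcg5 read 4415, 2888, 3430.3 and 3168 in dKO 1 to 4, against 2819.7, 2883, 2414 and 2447 in controls 1 to 4 (log2 change 0.38, SE 0.12, limma adjusted p = 0.0224), with no overlap, although control 2 and dKO 2 were almost equal. Its call was lost without dKO 1 (adjusted p = 0.0542), control 3 (0.0673) or control 4 (0.0694). Abcg8 read 2439.6, 1493, 1853 and 1809 in dKO 1 to 4, against 4167, 3796, 3346 and 3267 in controls 1 to 4 (log2 change -0.96, SE 0.13, limma adjusted p = 0.000101), and that call held in all 17 other settings. The ratio of Abcg5 to Abcg8 was 1.84 ± 0.0769 in dKO livers and 0.727 ± 0.0370 in controls. The annotated genes lie on opposite strands and overlap over 6710 bases of chromosome 17 (84676302 to 84683011, mm10), with the strand setting of the counting not given in the sources used here.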
